A study of Mus musculus with 3 samples.

Results

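The members described here were 7 genes best known from neurons, Dok5, Cacna2d3, Kcnma1, Fam19a1, Grin2a, Reln and Lrrc7, out of 21728 protein-coding genes on chromosomes 1 to 19 and X. They were chosen by name, with earlier ATAC results of these cells known, as a gauge of background in open chromatin data of hematopoietic stem cells (HSCs), and the question was whether their ATAC fragments lay evenly along the genes or in peaks, and how their share per cell went with the share of the cell's fragments in peaks. Densities, bins and shares per cell are therefore descriptions. The cells were the 3108 of 3757 called cells with more than 3000 fragments in peaks. They came from 1 preparation of long-term HSCs, sorted as LSKCD150+CD48−CD34− from c-Kit-enriched bone marrow of wild-type mice aged 8 weeks, with no treatment, and profiled by DOGMA-seq, which reads ATAC, RNA and antibody tags from the same cells in 3 libraries. Only the 1 ATAC library is described. How many mice were pooled is not stated in the sources used here. With 1 library and no second condition there is no replicate error and no test, so that all intervals below are exact 95% Poisson or binomial intervals of the counts, or for ratios of shares a normal approximation on the log scale, which cover counting error only, and cells are not replicates.

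ATAC-seq cuts DNA with a transposase. It inserts mostly where nucleosomes leave DNA free, at promoters and enhancers, and at a low rate everywhere else. A gene with no regulatory element in use therefore gives few fragments per kb, thinly spread, whereas an active gene gives dense clusters of fragments. Genes of synapses and axons are often very long, which makes them large targets for scattered insertions. Kcnma1 encodes the pore subunit of the large-conductance potassium channel, Cacna2d3 an auxiliary subunit of voltage-gated calcium channels, and Grin2a a subunit of the NMDA type of glutamate receptor. Reln encodes reelin, a secreted protein that guides neuronal migration, and Fam19a1, also named Tafa1, a small secreted protein of the brain. Dok5 encodes a docking adaptor used by receptor tyrosine kinases, and Lrrc7 densin, a scaffold of the postsynaptic density.

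The library was checked against markers at gene starts, by the fragments within 1 kb on either side. Markers of HSCs had a median of 395 fragments (range 10 to 1811, 8 genes), beside 306 for all protein-coding genes. The lowest was Mecom with 10 at its annotated start. The 8 neuronal markers had a median of 78.5 and ranged from 20 for Gad1 to 447 for Snap25, and none was at 0. The 6 markers of glia and Schwann cells had a median of 196 (7 to 1001), endothelial markers 145, B cell markers 57.0, granulocyte markers 33.5 and erythroid markers 13.0, and the 3 T cell markers ranged from 10 to 32. The part of other cells in the results was not tested.

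Sequences are shown for the places where the members' fragments were densest and for starts at both ends of their range, so that a reader can see what lay under the counts. They were read from GRCm38 on the strand of the gene, and capitals mark matches to any of 6 short motifs on either strand: CAGGGGGC for the insulator protein CTCF, GGACAGCGC for REST, a repressor of neuronal genes, TGTGGT for RUNX factors, AGATAA for the factors of the GATA family, AGGAAG for ETS factors and CAGCTG for proteins that bind an E-box. The first comes from intron 2 of Dok5, chr2:170826931-170827230 on the plus strand, where 173 fragments had their midpoint, and the next from intron 7 of Dok5, chr2:170877501-170877800, with 100 fragments. Both were chosen as the densest 300 bp after the values were seen. The stretch set by the rule, the middle of the densest 1-kb bin of Dok5 (chr2:170827351-170827650), held 19 of that bin's 181 fragments. The last 3 are the 250 bases before the annotated starts of Reln (chr5:22344703-22344952, 31 fragments), Lrrc7 (chr3:158562222-158562471, 42 fragments) and Kcnma1 (chr14:24014492-24014741, 0 fragments, for which the one-sided 95% limit is 3), all on the minus strand.
Dok5 intron 2, densest: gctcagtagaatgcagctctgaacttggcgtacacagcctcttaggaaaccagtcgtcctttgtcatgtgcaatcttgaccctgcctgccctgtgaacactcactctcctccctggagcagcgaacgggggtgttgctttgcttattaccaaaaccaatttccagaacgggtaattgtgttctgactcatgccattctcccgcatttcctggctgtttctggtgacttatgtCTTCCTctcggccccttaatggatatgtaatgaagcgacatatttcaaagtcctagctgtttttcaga
Dok5 intron 7, densest: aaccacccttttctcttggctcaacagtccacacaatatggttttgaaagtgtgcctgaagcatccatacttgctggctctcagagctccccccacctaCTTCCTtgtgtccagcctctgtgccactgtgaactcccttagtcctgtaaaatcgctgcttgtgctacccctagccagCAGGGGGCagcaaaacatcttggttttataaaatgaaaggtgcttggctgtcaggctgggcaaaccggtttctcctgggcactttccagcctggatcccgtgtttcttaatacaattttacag
Dok5 intron 2, middle of the top bin: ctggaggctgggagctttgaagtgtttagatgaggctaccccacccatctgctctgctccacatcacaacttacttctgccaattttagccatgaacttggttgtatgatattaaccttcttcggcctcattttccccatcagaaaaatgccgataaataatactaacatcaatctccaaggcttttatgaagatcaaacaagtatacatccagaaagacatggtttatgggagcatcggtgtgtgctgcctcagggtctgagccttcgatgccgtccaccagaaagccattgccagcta
Reln, before the start: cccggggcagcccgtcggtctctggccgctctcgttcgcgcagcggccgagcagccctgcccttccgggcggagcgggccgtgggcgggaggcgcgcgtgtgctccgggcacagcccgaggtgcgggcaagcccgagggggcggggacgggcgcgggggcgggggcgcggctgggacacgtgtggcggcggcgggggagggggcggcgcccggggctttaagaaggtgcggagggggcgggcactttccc
Lrrc7, before the start: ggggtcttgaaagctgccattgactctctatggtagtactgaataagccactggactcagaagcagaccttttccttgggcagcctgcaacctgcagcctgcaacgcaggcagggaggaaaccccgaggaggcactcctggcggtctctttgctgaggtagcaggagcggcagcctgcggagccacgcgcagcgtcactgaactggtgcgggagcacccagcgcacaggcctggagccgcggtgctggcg
Kcnma1, before the start: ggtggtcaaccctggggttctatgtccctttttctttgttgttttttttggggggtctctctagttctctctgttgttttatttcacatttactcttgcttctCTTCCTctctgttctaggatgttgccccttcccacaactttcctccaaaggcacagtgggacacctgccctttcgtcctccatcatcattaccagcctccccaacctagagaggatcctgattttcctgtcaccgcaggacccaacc

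The stretch before Reln held 37 CpG dinucleotides and was 80.8% G and C, that before Lrrc7 held 13 CpG, and that before the Kcnma1 start held 2, beside a median of 8 for the 250 bases before all protein-coding starts. The ETS letters occurred in both densest stretches of Dok5, and the CTCF letters in that of intron 7. Among the 300 bp in the middle of all open bins (defined below), 35.6% held the ETS letters and 1.44% the CTCF letters. These are not like windows, because the densest stretches were chosen after the values were seen. The middle of the densest bin of Dok5 held neither. Among the middles of the densest bins of the 7 members, 2 held the ETS letters and 1 the CTCF letters. Before the 7 starts, the ETS letters occurred in 2 members, Dok5 and Kcnma1 (29.1% of all protein-coding starts), the E-box in 2, Cacna2d3 and Dok5 (12.1%), and GATA in 1, Fam19a1 (9.08%). The REST, RUNX and CTCF letters occurred before none of the 7, and before 0.340%, 13.0% and 2.96% of all starts. Such matches describe letters in these windows and do not show binding.

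Fragments were assigned to a gene body by their midpoint. The 7 gene bodies spanned 3.60 Mb and held 6274 fragments, or 1.74 per kb (1.70 to 1.79). Cacna2d3 (chromosome 14, 817 kb) had the lowest density, with 715 fragments or 0.875 per kb (0.812 to 0.942). Grin2a (chromosome 16, 428 kb) followed with 563 fragments or 1.32 per kb (1.21 to 1.43), and Lrrc7 (chromosome 3, 479 kb) with 697 or 1.45 per kb (1.35 to 1.57). The intervals of Grin2a and Lrrc7 overlap, and that of Cacna2d3 lies below both.
Fam19a1 (chromosome 6, 544 kb) had 843 fragments or 1.55 per kb (1.45 to 1.66), which overlaps with Lrrc7. Reln (chromosome 5, 460 kb) had 865 or 1.88 per kb (1.76 to 2.01), and Kcnma1 (chromosome 14, 725 kb) 1469 or 2.03 per kb (1.92 to 2.13), and these intervals overlap too, though not without the 2 cells described below. Dok5 (chromosome 2, 148 kb), the shortest member, stood apart with 1122 fragments or 7.58 per kb (7.15 to 8.04). Per cell the genes were sparse, and the share of cells with at least 1 fragment ran from 9.59% for Grin2a to 29.2% for Kcnma1.

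Set beside other genes, the median of the 7 members was 1.55 per kb, against 21.4 for all protein-coding genes and 9.10 for the 2486 protein-coding genes of at least 100 kb. From the bottom of those long genes, 6 members fell between percentile 2.94 (Cacna2d3) and percentile 13.9 (Kcnma1), and Dok5 at percentile 43.5. The 21 other long neuronal genes had a median of 1.65 per kb, from 0.679 for Lrp1b, a receptor of the LDL receptor family, to 7.17 for Dlgap1, a postsynaptic scaffold. The members lay mostly inside that range. Dok5 was level with its upper end within the counting error, with an interval of 7.15 to 8.04. The 14 genes listed as long genes of HSCs had a median of 32.3, and their lowest, Zbtb20 at 11.1 per kb, was above every member. Their highest was the transcription factor gene Hlf at 74.0, which at 54.4 kb is shorter than every member. The 13 of at least 100 kb had a median of 27.9. The 31 relatives of the members, channel subunits, adaptors and receptors of the same families, had a median of 22.0 and ran from 1.34 for Dab1, the adaptor in reelin signaling, to 315 for Dok2, an adaptor of blood cells that spans 12.5 kb. Most relatives were short: the 18 under 100 kb had a median of 65.2, and the 13 of at least 100 kb one of 3.68 (1.34 to 22.0). The long genes closest to the summed members in density and in unevenness were Ano4, Kcnn2 and Stk32a, at 1.80, 1.78 and 1.68 fragments per kb, among 2475 genes compared.

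**Figure D1:**
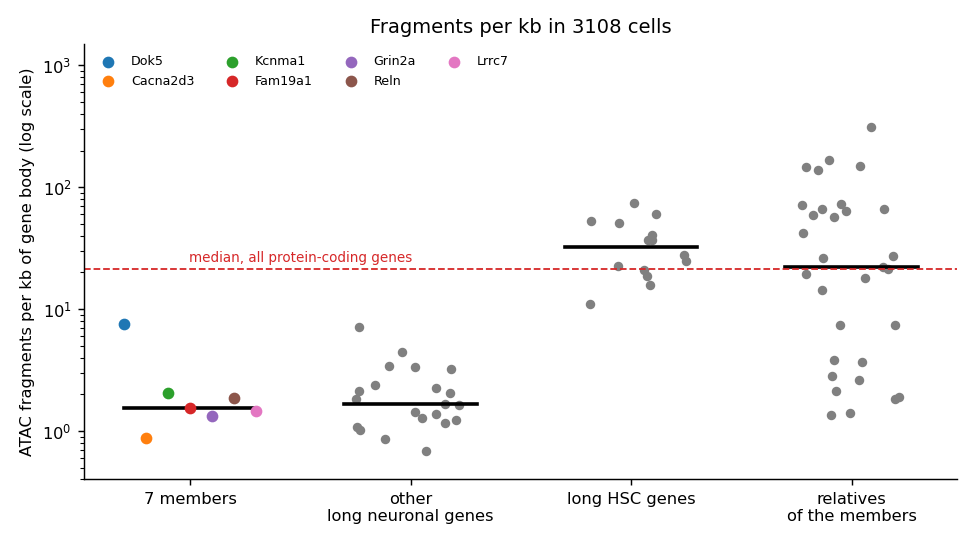
Fragments per kb of gene body (log scale) for the 7 members in color, with 95% Poisson intervals mostly smaller than the points, and for the genes of 3 lists in gray. Black lines are list medians and the dashed line is the median of all protein-coding genes, 21.4; 6 members sit between 0.875 and 2.03, and Dok5 at 7.58.

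The fragments of the members did not lie evenly. Gene bodies were cut into 1-kb bins, and a bin was called open when it held at least 10 fragments, 5 times the genome's median of 2. Of the members' 3609 bins, 69 (1.91%) were open, against a background of 15.0% of 2558957 bins over the genome. Bins were counted whole, so that the first and last bin of a gene reach past its ends: the members' bins held 6406 fragments, 132 of them outside the gene bodies. The 69 open bins held 38.6% of the 6406 (37.4 to 39.8), and counted inside the gene bodies 37.5% of the 6274 (36.3 to 38.7). Over whole bins the share was 87.7% in open bins genome-wide, 43.7% in the other long neuronal genes and 93.8% in the long HSC genes. The variance of the counts over all member bins was 26.8 times their mean, where an even spread gives 1. Outside the open bins it was 1.67 times the mean, and 41.9% of closed bins were at 0 where an even spread would give 32.9%. A closed bin by definition holds few fragments, so these are descriptions. The mean closed bin held 1.11 fragments in the members, 2.10 in the genome, 1.65 outside all annotated genes, 1.27 in the other long neuronal genes and 4.82 in the long HSC genes.

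The members differed in how far their fragments were gathered. Of the fragments in its whole bins, Dok5 had 73.0% (70.3 to 75.6) in 18 open bins of 149, and Grin2a 12.8% (10.2 to 15.9) in 3 of 429. Between these lay Cacna2d3 with 23.5% in 4 bins, Reln with 27.7% in 7, Fam19a1 with 35.0% in 10, Lrrc7 with 35.4% in 4 and Kcnma1 with 40.0% in 23. An open bin reached past the edge of the gene body in Lrrc7, Reln, Cacna2d3, Dok5 and Fam19a1. Counting only the fragments inside the gene body lowered this share mainly in the first 3 of these. It fell to 30.8% in Lrrc7 (27.4 to 34.4), where 49 of the 264 open-bin fragments lay outside. In Reln it fell to 24.9% (22.0 to 27.9) and in Cacna2d3 to 21.0%. In the other 4 it moved by little, from 12.8% to 13.0% in Grin2a. Closed bins of Dok5 held 2.34 fragments on average (2.08 to 2.61), an interval that includes the genome's 2.10, and those of the others from 0.698 in Cacna2d3 to 1.43 in Reln. With open bins left out, the summed members had 1.11 fragments per kb.

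**Figure D2:**
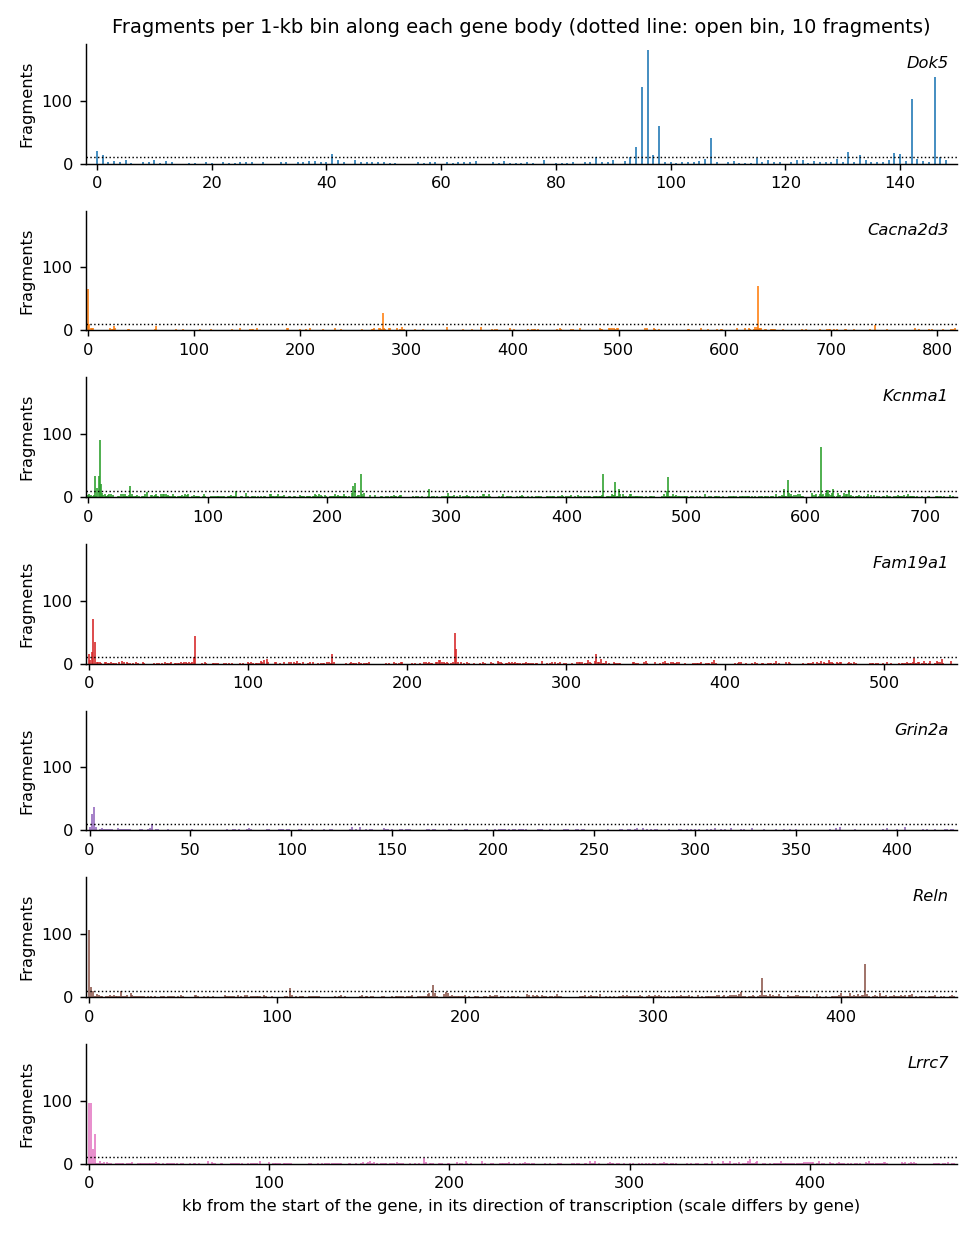
Fragments in each 1-kb bin along the 7 gene bodies, in kb from the annotated start in the direction of transcription, with a dotted line at 10 fragments, from which a bin counts as open. Dok5 shows clusters up to 181 fragments in its 3′ part, Lrrc7 only at its start, and Grin2a no bin above 37.

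Of the 69 open bins, 18 lay within 1 kb of an annotated transcript start of the same gene and 51 (73.9%) within 1 kb of no start, near the 76.3% of all 384096 open bins of the genome that lay within 1 kb of none. In the members 49 open bins lay in an intron of the principal transcript, and the share of all member bins in introns was not counted. In all, 33 had fewer than 20 fragments and 14 had at least 50. In Dok5 the 4 densest bins were in intron 2 (181 fragments in chr2:170827001-170828000 and 122 in the bin before it) and in intron 7 (137 in chr2:170877001-170878000 and 103 in chr2:170873001-170874000). The 181 fragments came from 149 cells. In Kcnma1 the densest was exon 1 of the principal transcript (91, chr14:24004001-24005000), within 1 kb of which the noncoding gene 4930519K11Rik also starts, followed by intron 19 (80), intron 2 (37) and intron 5 (36). In Cacna2d3 intron 17 (70 fragments from 67 cells, chr14:29090001-29091000) was level with exon 1 (66) within the counting error, and intron 4 held 28 and exon 2 10.
In Fam19a1 all of the 4 densest bins were in intron 2, with 71, 48, 44 and 34 fragments, the first near the start of a shorter transcript (chr6:96116001-96117000). In Reln, exon 1 held 107 (chr5:22344001-22345000), the bin with exon 48 held 52, that with exon 30 held 30 and one in intron 4 held 19. All 4 open bins of Lrrc7 were next to each other at the start, with 97, 96, 24 and 47 fragments (chr3:158559001-158563000 in all). The 3 open bins of Grin2a held 37 (chr16:9993001-9994000) and 26 at the start and 10 in intron 3.

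**Figure D3:**
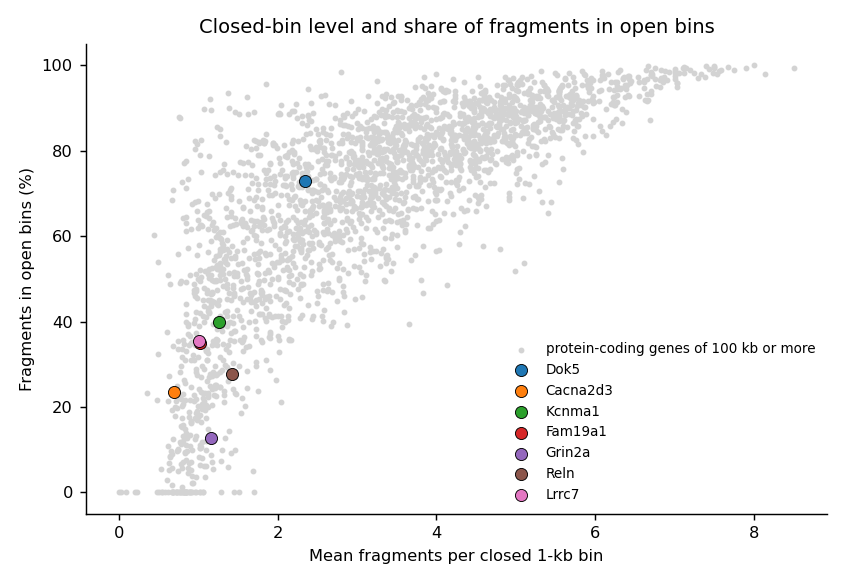
Mean fragments per closed 1-kb bin (horizontal) against the share of fragments in open bins (vertical), both over whole bins, for protein-coding genes of at least 100 kb, in gray, and for the members in color. The 6 members other than Dok5 lie at 0.698 to 1.43 fragments per closed bin and 12.8% to 40.0%, and Dok5 at 2.34 and 73.0%.

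Starts of the members were partly open. Within 1 kb on either side of the annotated start, Lrrc7 had 173 fragments (148 to 201), Reln 162 (138 to 189) and Cacna2d3 127 (106 to 151), all below the median of 306 for protein-coding genes, at percentiles 42.9, 42.2 and 40.1. Dok5 had 33, Fam19a1 19, Grin2a 15 and Kcnma1 7 (2.81 to 14.4). The Kcnma1 value depended on the transcript: its annotated gene start belongs to an upstream transcript, and at the start of the principal transcript there were 130 fragments. Grin2a had 58 and Fam19a1 35 at the most open of their transcript starts. The observed over expected ratio of CpG in the same windows was 0.876 for Reln, 0.814 for Cacna2d3, 0.588 for Lrrc7, 0.644 for Grin2a, 0.500 for Dok5, 0.269 for Fam19a1 and 0.106 for Kcnma1.

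Fragment length was not used to choose the members. Fragments shorter than 150 bp fit between nucleosomes, and longer ones span 1 nucleosome or more. In the members 33.4% of fragments were short (32.3 to 34.6), against 57.5% at the starts of protein-coding genes and 46.1% of all fragments. In their open bins the share was 46.2% (44.2 to 48.3), close to the 46.4% of open bins outside genes. In their closed bins it was 25.7% (24.4 to 27.1), above the 19.5% of closed bins outside genes and the 19.4% of closed bins in long HSC genes. Part of this came from the 2 cells described below, which held 681 of the 3921 fragments in the members' closed bins, 42.1% of them short. Without these cells the shares were 22.3% (20.9 to 23.8) in the members, 19.03% in closed bins outside genes and 19.3% (18.5 to 20.2) in long HSC genes. Among members the share in closed bins then ran from 18.1% in Dok5 (13.8 to 23.0) to 28.3% in Cacna2d3 (24.2 to 32.7), and it was 32.2% in Cacna2d3 with all cells. In the other 5 it was 20.7% to 23.7%, with intervals that include 19.03% in all but Fam19a1 (20.1 to 27.6).

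**Figure D4:**
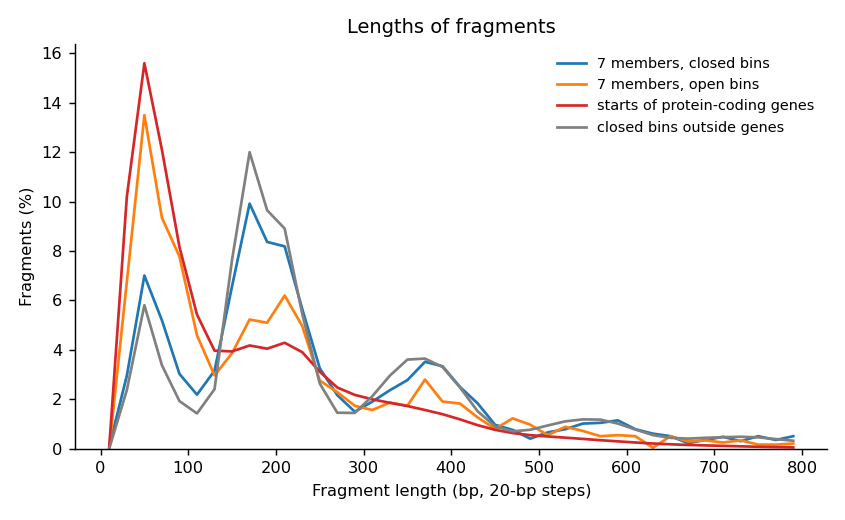
Share of fragments (vertical, percent) by length in steps of 20 bp (horizontal) in closed and open bins of the members, at starts of protein-coding genes and in closed bins outside genes. Closed bins of the members and closed bins outside genes both have their maximum near the length of 1 nucleosome, with more short fragments in the members (25.7% against 19.5%, or 22.3% against 19.03% without the 2 cells described below), and the members' open bins have more still, 46.2%.

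Base composition went with the level of closed bins. Member bins under 35% G and C held 0.742 fragments (0.625 to 0.875) and those of 45% or more held 1.40 (1.32 to 1.49), and over the genome the same classes held 0.941 and 3.43. Member bins with at least 60% of bases in repeats held 0.515, against 1.13 where under 20% was repeat.

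Of the members' 6274 fragments, 2 cells held 717, and these are given before the relation across cells because it leans on them. The first had 426 member fragments (6.79% of all) and was the cell with the most fragments, 194399, and the most RNA UMIs, 52809, with 40.4% of fragments in peaks. Reln took 172 of them, Grin2a 151 and Lrrc7 53, and Fam19a1 2. The next had 291 member fragments (4.64%) among 62735, with 3762 UMIs and the lowest share in peaks of all cells, 19.2%. There Kcnma1 had 138, Cacna2d3 100 and Fam19a1 39, and Dok5 and Grin2a none. The cell after these had 38.
These cells were picked for their member fragments, so the members' counts in them are descriptions. Over 1-Mb windows of the genome, the variance of the counts beyond the mean, divided by the squared mean so that depth does not set it, was 0.934 in the first cell and 1.15 in the other. It ranged from 0.740 to 1.46 in the other 7 cells of more than 40000 fragments, which held 6 to 38 member fragments each. By this measure the 2 cells lay within the range of other deep cells. In both, 4 of the 7 members lay above the cell's own genome-wide density, as did 32.5% and 35.2% of all protein-coding genes of at least 100 kb. In the first cell the flanks of 4 members lay above that density, and in the other the flanks of 5. Of all 1-Mb windows of the genome, which are smaller than these flanks, 37.0% and 36.5% lay above the cell's mean. In the first cell Grin2a held 0.353 fragments per kb, its flanks of 2 Mb on either side 0.185 and the cell's genome 0.0737, whereas the flanks of Dok5 (0.0728), Kcnma1 (0.0510) and Fam19a1 (0.0492) were not above it. In the other, Kcnma1 held 0.190 per kb, its flanks 0.0935 and the genome 0.0238, whereas Reln held 0.00435. Without these 2 cells, a choice made after seeing the data, the members had 5557 fragments, 1.54 per kb, 66 open bins and 42.4% of the fragments of whole bins in them. Grin2a then had 412 fragments or 0.963 per kb (0.873 to 1.06), still above Cacna2d3 at 0.737 and now below Lrrc7 at 1.32 (1.22 to 1.43) with no overlap. Reln at 1.50 (1.39 to 1.62) no longer overlapped with Kcnma1 at 1.82 (1.72 to 1.92).

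Per cell the gauge rested on few fragments. A cell had a median of 11457 fragments, 3359 of them outside peaks, and on average 2.02 on the 7 members together, and 906 cells (29.2%) had none. A count of that size has a relative counting error of 70.4%. The share of fragments in peaks was 19.2% to 79.9%, median 70.6%. Across the 3108 cells, Pearson's r between the member share and the share in peaks was −0.376 and Spearman's rho −0.185. Both shares have the cell's number of fragments as denominator, and a fragment in a peak cannot also lie outside peaks. Without the 2 cells they were −0.321 and −0.183. For the summed closed bins of the whole genome, which count far more fragments per cell, they were −0.962 and −0.913.

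Cells were therefore pooled in 5 groups of equal size by share in peaks, with medians from 66.4% to 74.1%. From the lowest to the highest share in peaks, the members took 2.84, 1.40, 1.32, 1.22 and 1.20 of every 10000 fragments, and the lowest group was 2.38 times the highest (2.19 to 2.58). Among the 4 upper groups the intervals of neighbors overlapped. By the grouping, 3631670 of 9491954 fragments lay outside peaks in the lowest group and 1499870 of 5871081 in the highest. A ratio above 1 per all fragments is therefore in part fixed in advance. Without the 2 cells, both of which were in the lowest group, that group had 2.14 and the ratio was 1.79 (1.64 to 1.95). Within 3 equal sets of cells by depth, the ratio was 1.28 in the shallowest, 1.44 in the middle and 3.12 in the deepest set, which holds the 2 cells. Depth itself went with the groups, with a median of 13544 fragments in the lowest and 9446 in the highest, and its part was not tested.

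Closed and open bins differed in this. Per all fragments, in closed bins of the members the lowest group was 4.17 times the highest (3.70 to 4.70; 2.87 without the 2 cells), and in their open bins 0.956 times (0.842 to 1.09). Long HSC genes were at 0.962 and all closed bins of the genome at 2.02. Per 10000 fragments outside peaks, the members had 7.42, 4.53, 4.48, 4.37 and 4.68, a ratio of 1.59 (1.46 to 1.72), or 1.22 (1.12 to 1.33) without the 2 cells. This denominator is itself smaller in cells with a higher share in peaks, so that every ratio was lower than per all fragments: long HSC genes were at 0.642 (0.631 to 0.653) and all closed bins of the genome at 1.35. With it the sum had overlapping intervals in the 4 upper groups. Closed bins had 2.58 (2.38 to 2.79), 2.39, 2.07 and 2.07 (1.84 to 2.31) in these groups, and open bins 1.96 (1.78 to 2.14), 2.10, 2.30 and 2.61 (2.36 to 2.89). Over all 5 groups the open bins gave a ratio of 0.638 (0.562 to 0.725), near that of long HSC genes, and the closed bins one of 2.78 (2.47 to 3.14).
Among single members the ratio of the lowest to the highest group, per all fragments, was 5.66 for Grin2a, 4.28 for Cacna2d3, 3.55 for Reln, 3.12 for Lrrc7, 2.11 for Kcnma1 and 2.07 for Fam19a1. Without the 2 cells the same 6 lay between 1.62 for Kcnma1 and 3.35 for Grin2a. Per fragment outside peaks and without the 2 cells they lay between 1.10 for Kcnma1 (0.927 to 1.31) and 2.28 for Grin2a (1.62 to 3.21), and the intervals of Kcnma1 and Fam19a1 (1.26, 0.992 to 1.60) included 1. Dok5 had 0.877 (0.731 to 1.05), 0.832 without the 2 cells (0.692 to 1.00) and 0.818 without the 9 cells of more than 40000 fragments (0.679 to 0.985), and per fragment outside peaks 0.585 (0.488 to 0.702), where long HSC genes were at 0.642. Its fragments per 10000 in the 5 groups were 0.297, 0.241, 0.300, 0.346 and 0.339. Leaving Dok5 out of the sum gave a ratio of 2.97 (2.70 to 3.27). Of the 7 listed genes, Dok5 was the one with a ratio under 1. Its interval per all fragments includes 1 over all cells. Without the 9 deepest cells, a choice made after seeing the data, the upper limit was 0.985. In that setting the squared deviation of its counts per cell from those expected by depth averaged 1.58 times the expected count. Counting error alone gives 1, so the interval is too narrow for the spread between cells.

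**Figure D5:**
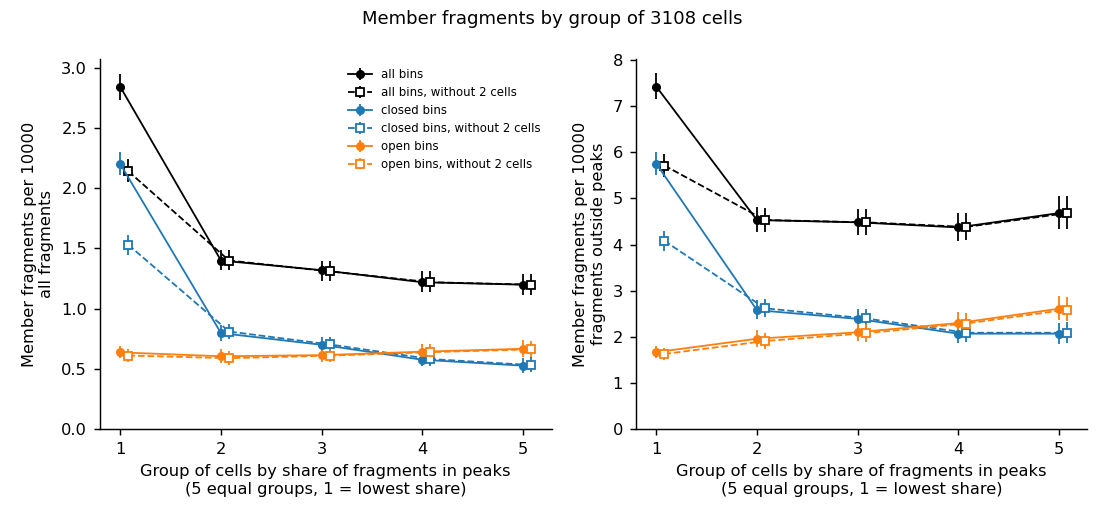
Member fragments per 10000 fragments (left) and per 10000 fragments outside peaks (right) in 5 equal groups of the 3108 cells by share of fragments in peaks, 1 being the lowest, with 95% binomial intervals. Filled points and solid lines show all cells and open squares with dashed lines the cells without the 2 that hold 717 member fragments; closed bins go from 2.20 to 0.528 on the left and open bins stay between 0.606 and 0.668.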

How the data were processed

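Per the file headers, reads were mapped to mm10 by Cell Ranger ARC 2.0.2. The authors deposited, as counts, each unique ATAC fragment with the read pairs behind it, and for each barcode its fragments, fragments in peaks, RNA UMIs and whether it was called a cell. No source used here says whether fragment ends were shifted for the transposase. The antibody tag counts deposited by the authors, the peak list and the RNA counts per gene were not used here. None of the values used here had been normalized by the authors.

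Fragments on chromosomes 1 to 19 and X (41939686 of 42000180; 37137164 in the cells kept) were placed by their midpoint, with genes from GENCODE vM21 and sequence from GRCm38.p6; no fragment ended beyond its chromosome. Doublets were kept. Python 3.11.15, NumPy 2.4.6, SciPy 1.17.1 and pandas 2.3.3 were used, and matplotlib 3.10.9 for plots. The counting steps were tested on simulated bins and cells. The members, gene lists, motifs and cuts were chosen with earlier results of these data known. By the naming rule, the 7 members were described in full, with at most 4 genes of each of 3 lists (those with the most and fewest fragments per kb), the densest bins, the 3 nearest long genes, and sequences of top bins and starts. Of 5 members found among RefSeq's promoters (Dok5 and Grin2a had no entry), none is printed because those windows overlap annotated exons; the 250 bases before the GENCODE start are shown instead, and the top bins of Reln and Grin2a are not printed for the same reason.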

Additional observations from a re-analysis of the deposited data

How the results depend on the processing

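Of 112 values under other settings, 100 had a counting interval, and 32 of these moved within it and 68 beyond it. The other 12, the number of open bins and the variance over the mean, have no interval, and 3 of them moved by more than 1.5 times. A direction could change in the 17 values of the ratio between groups of cells, and all 17 were above 1. Most are per all fragments, where the grouping itself gives the lowest group a larger part of fragments outside peaks. A value above 1 is there in part fixed in advance. Fragments per kb of the members (1.74) were 1.37 with fragments of at least 2 read pairs, 1.82 in all called cells, 1.59 above 6000 fragments in peaks, 1.52 without exon and start bins, 1.11 without open bins and 1.86 per base outside repeats. The share of fragments in open bins (38.6%, over whole bins) was 40.6% in 500-bp bins, 31.7% in 5-kb bins, 43.7% when open meant 3 times the median (117 open bins) and 31.7% at 10 times (36 open bins). The ratio of the lowest to the highest of 5 groups of cells by share in peaks (2.38) was 3.10 with 10 groups, 1.28, 1.44 and 3.12 within 3 sets by depth, 4.17 without open bins, 2.97 leaving out Dok5, 2.18 leaving out Grin2a, and 1.59 per fragment outside peaks. Short fragments (33.4%) were 28.6% with a limit of 120 bp, and start windows (38.3 fragments per kb) had 53.0 with 500 bp on either side. Among settings chosen after seeing the data, closed bins per fragment outside peaks gave a ratio of 2.78. Without the 2 cells of at least 100 member fragments the values were 1.54 per kb, 42.4% in open bins, a ratio of 1.79 and 32.2% short. Without the 9 cells of more than 40000 fragments they were 1.50, 43.3% and 1.70. Apart from settings that count fewer fragments, cells or genes by construction, the cause was not tested. No paired analysis was possible because there is 1 ATAC library and no group to compare. With about 2 member fragments per cell, depth limits every value of a single cell.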

Other observations

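Barcodes not called as cells gave values outside the comparisons above. In 601292 such barcodes, with 40.8% of their fragments in peaks, the members took 6.36 of every 10000 fragments (6.10 to 6.63), beside 1.69 (1.65 to 1.73) in the 3108 cells and 2.06 (1.82 to 2.32) in the 649 called cells with 3000 or fewer fragments in peaks. The members' bins make up 14.1 of every 10000 bases of the genome. A single barcode not called as a cell had 429693 fragments, 6.05% of them in peaks, and a member share of 13.7 per 10000 (12.6 to 14.8), with 3.07 for Cacna2d3, 2.98 for Grin2a and 0 fragments in Lrrc7. Without it the others had 5.34 (5.09 to 5.60). Cacna2d3 had 0.192 per 10000 in the 3108 cells and 1.29 in those others, or 1.50 with the single barcode. Grin2a had 0.151, 0.806 and 1.07 in the same order, and Dok5 0.302, 0.339 and 0.445.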
